A study of Mus musculus with 4 samples.

Results

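The genes described here are enzymes of glycolysis and genes of the hypoxia response, measured by sequencing of poly(A) RNA from mouse spermatogonial stem cells (SSCs) in culture; these germ cells of the testis renew themselves and give rise to sperm. The set was a fixed list of 34 gene symbols, matched by name to the deposited table of FPKM values, which give a level per length of transcript, scaled to the depth of the library. All 34 symbols were found. They matched 35 of the 37653 rows of that table, because 2 rows carry the name Aldoa. By role, the symbols were 17 enzymes, 5 transporters and regulators of the pathway, 11 genes of the hypoxia response, and Hif1a, a subunit of the factor that drives that response. The study compared wild-type (WT) SSCs with SSCs labelled Tex11PM/Y, a notation for the single X of a male; Tex11 is an X-linked gene needed for crossovers in meiosis, and the labels do not define PM. Both groups came from mice of the C57/BL6*DBA2 strain at postnatal day 10, were grown in culture with regular passages and were collected on a cell sorter, with the sorting marker not given. Each group had 2 libraries, and the labels do not say whether these came from separate animals or cultures, so p-values measure only the spread between these libraries. The WT libraries are called replicates 1 and 2; the Tex11PM/Y columns share a name and are called libraries A and B.

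Glycolysis splits glucose into pyruvate in the cytoplasm and yields ATP without oxygen, and lactate dehydrogenase then turns pyruvate into lactate. Many of its enzymes are also targets of hypoxia-inducible factor (HIF), a transcription factor whose alpha subunit is hydroxylated by prolyl hydroxylases and destroyed when oxygen is present. Cultured SSCs are known to rely on glycolysis for much of their energy.

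Total counts were 19047148 to 19804951 per library. A gene with 0 counts could hold up to 3 counts, which at this depth were 0.149 to 0.169 CPM (counts scaled by library size), for counting error only. Tex11 stood at 66.4 CPM in WT replicate 1, 126 CPM in WT replicate 2, 22.7 CPM in library A and 9.32 CPM in library B, lower in both Tex11PM/Y libraries. All 10 SSC and germ cell markers were detected in every library, with summed levels of 3114 and 3462 CPM in the WT libraries, 3872 CPM in library A and 3701 CPM in library B. Library A stood apart in markers of fibroblasts and macrophages. The 20 fibroblast markers summed to 15563 and 4342 CPM in WT, to 468 CPM in library A and to 5679 CPM in library B. The 12 macrophage markers summed to 698 and 569 CPM in WT, to 28.96 CPM in library A and to 1349.8 CPM in library B. None of these 32 markers was at 0 counts in any library. Summed levels ranged from 8.71 CPM (library A) to 240.4 CPM (WT replicate 1) for peritubular myoid markers. The range was 12.2 to 26.3 CPM for Sertoli cell markers (16.9 CPM in library A). It was 14.6 to 17.1 CPM for endothelial markers (14.7 CPM in library A). For Leydig cell markers it was 9.91 to 15.96 CPM (13.9 CPM in library A). The part of these cells in the results below was not tested. In bulk RNA, fewer cells of a type and less RNA per cell cannot be told apart.

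Most members had their lowest level in Tex11PM/Y library A, and no member passed the test of a genotype difference. Of 33 rows with enough counts to be tested, 27 had their lowest level in library A, against 34.4% of all 17262 genes tested, and 4 had their highest there, against 35%. Library A was more than 2-fold below library B at 18 of 33 (13% of all genes) and more than 2-fold above it at 1 of 33 (11.6% of all genes). The gap between libraries A and B exceeded the fitted genotype difference at 28 of 33 members, against 62% of all genes. With edgeR's quasi-likelihood test, 0 of 33 members passed an adjusted p of 0.05 in either direction, as did 0% of all genes. Limma on FPKM called 0 members, and 0% of genes. DESeq2 called 0 members (0.00303% of genes higher, 0% lower), as did edgeR without a filter on low counts (0.0484% higher, 0.103% lower). At an unadjusted p under 0.05, 2 of 33 members, Pfkp and Eno2, were lower (1.71% of all genes) and 0 were higher (0.991% of all genes). Fitted values were below 0 for 29 of 33 members (49% of all genes), with a median log2 fold change of -0.58, against 0.01 over all genes. The 2 genotypes did not overlap at 15 members, all lower in Tex11PM/Y (16.3% of all genes); none was higher without overlap (16.1% of all genes). Car9 and the second Aldoa row had too few counts and were not tested.

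**Figure D1:**
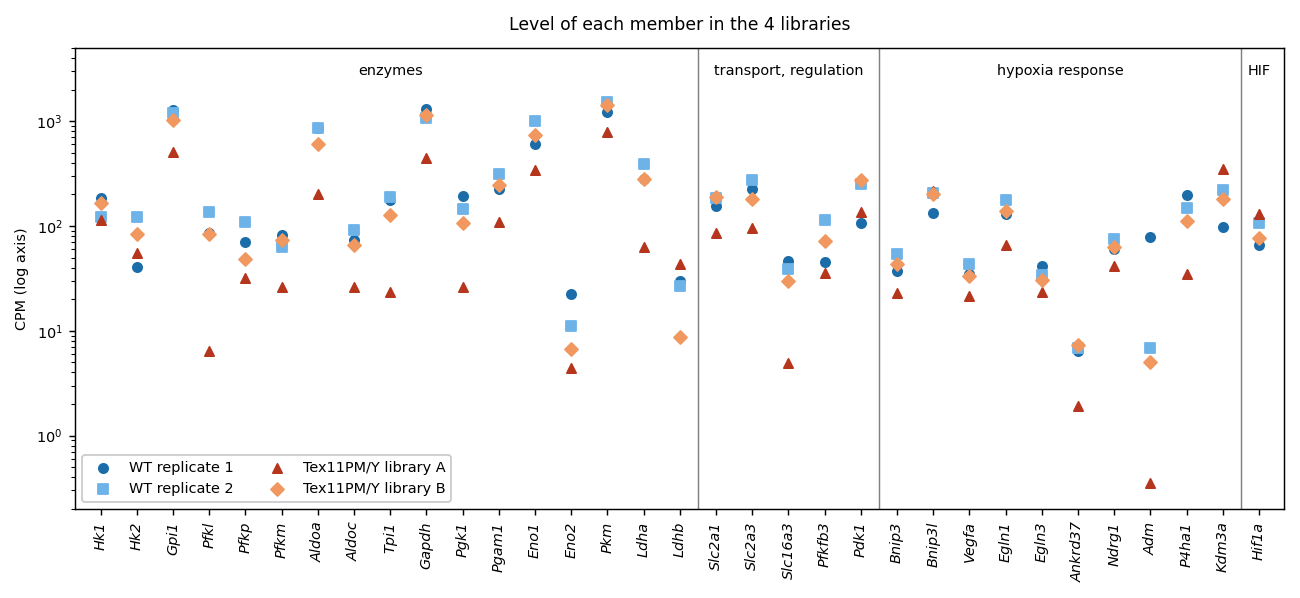
Level of each of the 33 tested members in the 4 libraries, in CPM on a log axis, with genes in groups by role. Triangles of Tex11PM/Y library A lie lowest for 27 members, and highest for Ldhb, Bnip3l, Kdm3a and Hif1a.

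HIF binds a short core, ACGTG or GCGTG, in the promoters and enhancers of its targets. The 250 bases before the transcription start (the first listed, where RefSeq gives several) are shown for 6 members: Pfkl, Ldha, Pgk1, Bnip3 and P4ha1, which were lowest in library A, and Ldhb, which was highest there. They were chosen after the values were seen, and each lies outside the gene as the count table bounds it. Capitals mark the core on either strand, where the other strand reads CACGT or CACGC; the palindrome CACGTG holds 1 match on each strand. Sequences are from RefSeq, build GRCm38.p6, 5′ to 3′ towards the gene.
Pfkl, chr10:78009808-78010057, minus strand: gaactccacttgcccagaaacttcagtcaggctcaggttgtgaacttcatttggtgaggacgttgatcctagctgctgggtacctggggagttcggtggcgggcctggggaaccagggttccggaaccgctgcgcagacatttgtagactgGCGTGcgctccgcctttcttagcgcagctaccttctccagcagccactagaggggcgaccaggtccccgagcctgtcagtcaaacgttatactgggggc
Ldha, chr7:46845554-46845803, plus strand: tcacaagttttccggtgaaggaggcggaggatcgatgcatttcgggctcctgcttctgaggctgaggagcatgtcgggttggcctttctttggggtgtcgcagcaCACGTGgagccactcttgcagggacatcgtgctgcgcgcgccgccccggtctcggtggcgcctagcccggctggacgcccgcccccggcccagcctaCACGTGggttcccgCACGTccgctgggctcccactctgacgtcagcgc
Pgk1, chrX:106186850-106187099, plus strand: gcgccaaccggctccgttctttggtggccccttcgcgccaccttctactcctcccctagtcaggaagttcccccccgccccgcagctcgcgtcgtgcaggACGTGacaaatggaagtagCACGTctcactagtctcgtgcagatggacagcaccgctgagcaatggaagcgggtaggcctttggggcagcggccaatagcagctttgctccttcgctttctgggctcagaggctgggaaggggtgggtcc
Bnip3, chr7:138909507-138909756, minus strand: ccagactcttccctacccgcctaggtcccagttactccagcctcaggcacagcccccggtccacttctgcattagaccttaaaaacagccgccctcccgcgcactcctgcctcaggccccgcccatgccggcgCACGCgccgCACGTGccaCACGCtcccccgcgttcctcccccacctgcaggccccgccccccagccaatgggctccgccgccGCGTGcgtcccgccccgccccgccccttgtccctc
P4ha1, chr10:59323046-59323295, plus strand: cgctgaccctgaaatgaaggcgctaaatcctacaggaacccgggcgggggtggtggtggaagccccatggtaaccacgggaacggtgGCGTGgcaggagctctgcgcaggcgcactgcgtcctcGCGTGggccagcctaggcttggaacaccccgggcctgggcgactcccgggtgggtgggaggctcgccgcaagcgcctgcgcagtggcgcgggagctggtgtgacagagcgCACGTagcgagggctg
Ldhb, chr6:142507958-142508207, minus strand: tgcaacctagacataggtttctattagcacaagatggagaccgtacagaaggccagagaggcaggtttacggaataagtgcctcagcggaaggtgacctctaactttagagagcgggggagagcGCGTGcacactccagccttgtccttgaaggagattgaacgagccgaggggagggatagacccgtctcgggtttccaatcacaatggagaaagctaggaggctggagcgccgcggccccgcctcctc
The Ldha and Bnip3 windows held 5 matches each, that of P4ha1 held 3, that of Pgk1 held 2, and those of Pfkl and Ldhb held 1 each. RefSeq windows were found for 31 of the 34 symbols, with none for Slc2a3, Bnip3l and Ndrg1. A match lay in at least 1 window of 28 of the 31 symbols. The others, Gpi1, Tpi1 and Eno2, were all lowest in library A. Hif1a and Kdm3a, both highest in library A, held at most 3 and 1 matches in a window. Of the 47 windows of members, 76.6% held a match, compared with 53.6% of the 15492 windows of genes tested and 38.6% of all 32851 windows. By window, the share was 75.0% for 28 windows of enzymes and 75.0% for 12 windows of hypoxia-response genes. Windows of the same gene can overlap, as at Aldoa and Eno1, so that a core is counted more than once. Counted once per gene, where any window with a match counts, it was 14 of 17 enzymes (82.4%) and 9 of 9 hypoxia-response genes, against 59.3% of 12206 genes tested. A gene with more windows has more chances to count. There were 47 windows for 31 members and 15492 for 12206 genes tested. Any link between the number of cores and the level in a library was not tested.

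Among the enzymes, levels per length were highest for Gapdh, Pkm, Aldoa, Gpi1 and Eno1, with means of 274 FPKM (Eno1) to 579 FPKM (Gapdh) over the 4 libraries. Eno2 had the lowest mean, 3.08 FPKM. Summed over the 17 enzymes, the share of all counts was 0.630% for WT replicate 1, 0.751% for WT replicate 2, 0.290% for library A and 0.632% for library B. All 17 had a fitted log2 fold change below 0, from -1.58 for Eno2 to -0.10 for Ldhb, with a median of -0.68, where 49% of all genes tested were below 0. With limma on FPKM, Hk2 turned to 0.038. The groups did not overlap at 9 of the 17, all lower in Tex11PM/Y (16.3% of all genes). None passed the threshold (edgeR adjusted p from 0.884 to 0.985).

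The steps that take up and split glucose showed the widest gap between the Tex11PM/Y libraries at Pfkl. Hexokinases start the pathway by phosphorylating glucose. Hk1 held 187, 121, 115 and 164 CPM in WT replicate 1, WT replicate 2, library A and library B, with overlapping groups. Hk2 held 40.3, 121, 55.3 and 84.6 CPM in the same order, with both WT libraries outside the Tex11PM/Y range. Gpi1, which converts glucose 6-phosphate to fructose 6-phosphate, held 1268, 1194, 507 and 1032 CPM, lower in both Tex11PM/Y libraries (log2 fold change -0.68, standard error 0.40). Phosphofructokinase commits sugar to glycolysis and has liver, muscle and platelet forms, encoded by Pfkl, Pfkm and Pfkp. Pfkl, on the minus strand of chr10:77986947-78009807 in mm10, held 85.9 and 135 CPM in the WT libraries, 6.35 CPM in library A and 84.1 CPM in library B. Library A was 13.3-fold below library B there, and library B lay just under WT replicate 1. The mean of WT was 111 ± 34.9 CPM and that of Tex11PM/Y 45.2 ± 54.99 CPM (± SD, n = 2 each; fitted log2 fold change -1.29, standard error 1.13). Pfkm held 81.3, 63.3, 25.9 and 73.9 CPM and overlapped between groups. Pfkp held 70.0, 109, 32.2 and 47.9 CPM, lower in both Tex11PM/Y libraries, with a smaller gap between them than at Pfkl (log2 fold change -1.16 with a standard error of 0.38; edgeR adjusted p = 0.884). Exons of Pfkp share 748 bases with Pitrm1 on the other strand, and the library kit is not stated to keep strand. Exons of Gpi1, Bnip3, Ndrg1 and Hif1a likewise share 330 to 741 bases with predicted genes on the other strand. Those of Pfkm and Pkm share 341 and 767 bases with predicted genes on their own strand. Reads in these shared bases cannot be told apart.

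The tested genes of the middle steps, Aldoa, Aldoc, Tpi1, Gapdh and Pgk1, were each lowest in library A. Aldoa, the main aldolase, held 868 and 863 CPM in the WT libraries, 199.8 CPM in library A and 607 CPM in library B. The WT libraries nearly coincided, and both Tex11PM/Y libraries lay below them, with means of 866 ± 3.21 CPM for WT and 404 ± 288 CPM for Tex11PM/Y (± SD, n = 2 each; fitted log2 fold change -1.10, standard error 0.51). The second row named Aldoa held only 8, 1, 6 and 9 counts. Aldoc, an aldolase best known from brain, held 73.9, 91.2, 26.4 and 66.2 CPM, also without overlap. Tpi1, which interconverts the triose phosphates, held 178, 191, 23.5 and 127 CPM. By FPKM it ranked 652, 490, 5440 and 944 among the 17262 genes tested, far lower in library A than elsewhere. Gapdh, often taken as a constant reference gene, held 1321, 1074, 444 and 1142 CPM, with library B between the WT libraries. Pgk1, which makes the first ATP of the pathway, lies at chrX:106187100-106203699 on the plus strand. It held 191 and 145 CPM in the WT libraries, 26.04 CPM in library A and 108 CPM in library B, without overlap (log2 fold change -1.33, standard error 0.63).

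In the lower part of the pathway only Eno2 and Ldha had both Tex11PM/Y libraries below both WT libraries. Pgam1, a mutase, held 225, 312, 110.04 and 244 CPM. Eno1, the enolase of most tissues, held 604, 998, 339 and 744 CPM. Both overlapped between the groups. Eno1b, an intronless copy of Eno1, had 1172, 1659, 482 and 1287 counts, 7.16% to 10.9% of those of Eno1, and reads may be split between them. Eno2, the enolase known from neurons, held 22.3, 11.2, 4.43 and 6.73 CPM, with means of 16.7 ± 7.87 CPM for WT and 5.58 ± 1.62 CPM for Tex11PM/Y (± SD, n = 2 each; fitted log2 fold change -1.58 with a standard error of 0.57; edgeR adjusted p = 0.884). Pkm, the pyruvate kinase of most tissues, held 1217, 1523, 793 and 1414 CPM, the smallest ratio of libraries B to A among Gpi1, Gapdh, Pkm, Aldoa and Eno1, at 1.78. Ldha, which favours making lactate, held 281 and 387 CPM in the WT libraries, 62.3 CPM in library A and 278 CPM in library B. Library B lay just under WT replicate 1 (log2 fold change -0.97, standard error 0.66).

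Ldhb, the subunit that favours turning lactate back to pyruvate, had the opposite order in the Tex11PM/Y libraries. It held 29.8 and 26.8 CPM in WT, 43.8 CPM in library A and 8.82 CPM in library B. Library A was therefore highest and library B lowest, with both WT libraries between them. On the FPKM scale Ldhb made up 11.5% and 7.67% of summed Ldha and Ldhb in WT, 47.3% in library A and 3.65% in library B. The ratio of Ldha to Ldhb ranged from 1.11 in library A to 26.4 in library B, so the Tex11PM/Y libraries held both extremes. Among phosphofructokinase genes, Pfkl made up 33.5% and 41.9% of summed FPKM in WT, 8.42% in library A and 36.8% in library B. The share of Hk2 in summed Hk1 and Hk2 was 14.2% in WT replicate 1, 43.8% in WT replicate 2, 26.9% in library A and 28.4% in library B, so the WT libraries held the extremes. By contrast Aldoc stayed between 4.58% and 6.33% of summed aldolase FPKM, so that Aldoa and Aldoc kept nearly the same proportion in all 4 libraries.

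**Figure D2:**
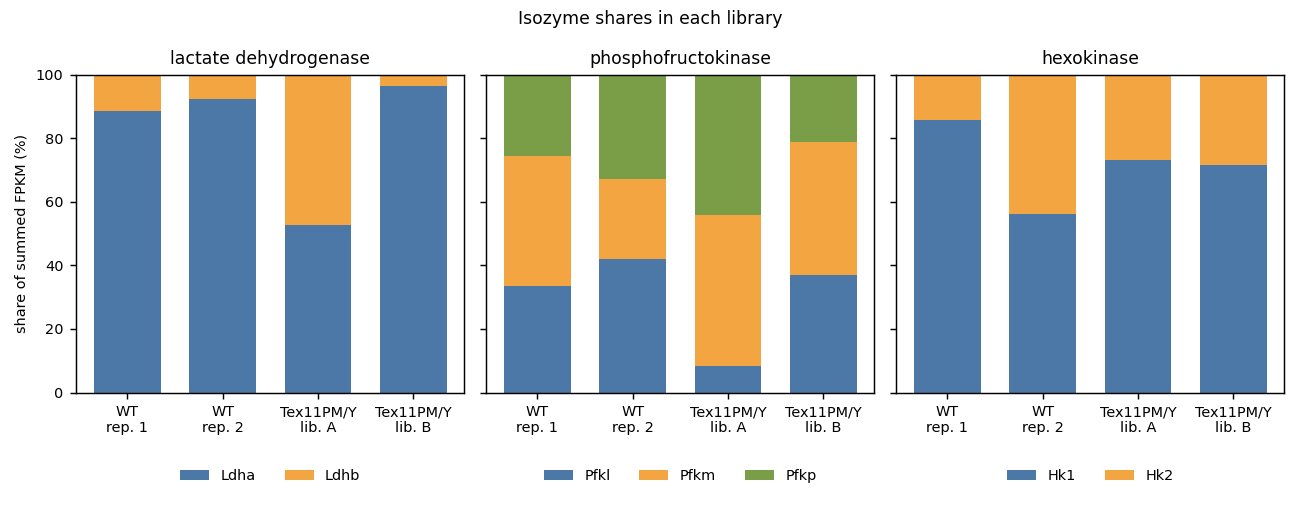
Share of each isozyme gene in the summed FPKM of its enzyme (percent), in each of the 4 libraries, for lactate dehydrogenase, phosphofructokinase and hexokinase. Ldhb takes 47.3% in library A and at most 11.5% elsewhere, and Pfkl takes 8.42% in library A and at least 33.5% elsewhere.

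The 5 transporters and regulators had a median log2 fold change of -0.58, and 0 passed the threshold. Slc2a1 and Slc2a3 encode the glucose transporters GLUT1 and GLUT3. Slc2a1 held 154, 186, 86.6 and 189 CPM in WT replicate 1, WT replicate 2, library A and library B, with library B highest. Slc2a3 held 224 and 273 CPM in the WT libraries, 95.7 CPM in library A and 181 CPM in library B, without overlap (log2 fold change -0.85, standard error 0.37). Slc16a3, which exports lactate, held 46.8, 38.9, 4.89 and 29.997 CPM, also without overlap, and was 6.14-fold lower in library A than in library B. Pfkfb3, whose product activates phosphofructokinase, held 45.2, 115, 35.4 and 71.8 CPM. Pdk1, a HIF target whose product inhibits pyruvate dehydrogenase, held 107, 249.98, 137 and 274 CPM. Pdk1 was lowest in WT replicate 1, and its order did not follow the genotype.

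Genes of the hypoxia response had a median log2 fold change of -0.50 over 10 tested members, with 8 fitted lower and 2 higher, and 0 passed the threshold. Egln1 and Egln3, which encode prolyl hydroxylases that mark HIF for destruction, are themselves HIF targets. Egln1 held 129.7, 177, 65.8 and 138 CPM, with library B between the WT libraries. Egln3 held 41.6 and 33.9 CPM in the WT libraries, 23.5 CPM in library A and 30.8 CPM in library B, a narrow separation of the groups (log2 fold change -0.48, standard error 0.37). Vegfa, the angiogenic growth factor, held 34.8, 43.8, 21.3 and 33.5 CPM, also just apart (log2 fold change -0.52, standard error 0.40). Ankrd37, which encodes an ankyrin repeat protein, held 6.41, 6.83, 1.91 and 7.28 CPM, so library A was the single low value. Ndrg1, a stress-response gene, held 59.7, 74.8, 41.2 and 62.8 CPM, with overlapping groups. Car9, a membrane carbonic anhydrase and a widely used hypoxia marker, was scarcely present, with 23, 2, 3 and 10 counts. Exons of Ankrd37 share 349 bases with Lrp2bp on the other strand.

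P4ha1 and Adm were the hypoxia-response genes with the widest distance between library A and WT. P4ha1, a collagen prolyl hydroxylase subunit at chr10:59323296-59373304 on the plus strand, held 197 and 149 CPM in the WT libraries, 34.6 CPM in library A and 112 CPM in library B. The groups did not overlap (log2 fold change -1.24 with a standard error of 0.54; edgeR adjusted p = 0.884). Adm, the vasodilator peptide adrenomedullin, held 79.3 and 6.78 CPM in the WT libraries, 0.353 CPM in library A and 5.03 CPM in library B, from 1412, 134, 7 and 101 counts. WT replicate 1 was thus far above the other 3 libraries, as it was for fibroblast markers, and library A was lowest for both. The part of fibroblasts in the level of Adm was not tested. The log2 fold change of Adm was -3.99 with a standard error of 1.68, and -1.33 without WT replicate 1.

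BNIP3 proteins drive the removal of mitochondria, and the 2 family members had different orders. Bnip3 held 37.3, 53.7, 23.1 and 43.2 CPM, lowest in library A. Bnip3l held 134, 208, 218 and 201 CPM, lowest in WT replicate 1 and highest in library A. Bnip3 was therefore 0.813 and 0.756 times Bnip3l on the FPKM scale in WT, 0.315 times in library A and 0.610 times in library B. Kdm3a, a histone demethylase induced by hypoxia and also active in male germ cells, held 97.9 and 222 CPM in the WT libraries, 352 CPM in library A and 180.03 CPM in library B. It was highest in library A, and the WT libraries lay on both sides of library B (log2 fold change 0.73, standard error 0.48). Hif1a, the oxygen-sensitive HIF subunit at chr12:73901375-73947530 on the plus strand, held 66.4 and 106 CPM in the WT libraries, 131 CPM in library A and 77.2 CPM in library B. It too was highest in library A (log2 fold change 0.27, standard error 0.39). Its transcript level does not report the protein, which is controlled by its destruction.

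Egln1, Ankrd37, Egln3 and Hif1a lie on chromosomes that stood out in a WT library. Over 921 genes of chromosome 8, the median level in WT replicate 1 was 0.40 log2 above the mean of the other libraries. Egln1 and Ankrd37 lie there, and neither had its highest level in WT replicate 1. Over 632 genes of chromosome 12, the median level in WT replicate 2 was 0.57 log2 above that mean. Egln3 and Hif1a lie there, and neither had its highest level in WT replicate 2. The part of these chromosome shifts in the levels of single genes was not tested.

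By mean log2 CPM, enzymes and hypoxia-response genes had the Tex11PM/Y libraries in the same order. Averaged over the 17 enzymes, WT replicate 1 stood at 7.55, WT replicate 2 at 7.68, library A at 6.05 and library B at 7.24 log2 CPM. The mean of the 10 hypoxia-response genes was 5.90, 5.83, 4.61 and 5.57 log2 CPM. Both were lowest in library A and next lowest in library B. The enzyme mean exceeded the other by 1.65, 1.86, 1.44 and 1.67 log2 in the same order. The difference between these values in Tex11PM/Y and WT was -0.20 log2 (exact permutation test over libraries, two-sided, p = 0.667, n = 2 each), in a design whose smallest possible p is 0.333. Libraries A and B differed by a median of -1.15 log2 over enzymes and -0.78 log2 over hypoxia-response genes. WT replicates 2 and 1 differed by medians of 0.11 and 0.33 log2. The hypoxia-response genes together held 0.0764% and 0.0995% of all counts in the WT libraries, 0.0804% in library A and 0.0825% in library B. Library A thus lay above WT replicate 1 on that measure, whereas the enzyme share was lowest in library A. By summed CPM, the hypoxia-response genes held 781 in library A and 818 in WT replicate 1. Such sums rest on the most abundant genes. Kdm3a and Bnip3l held 352 and 218 CPM in library A, against 97.9 and 134 CPM in WT replicate 1. Gene by gene, 8 of the 10 were lowest in library A. By mean log2 CPM, the fibroblast markers were also lowest in library A, with library B above WT replicate 2. Any link to the 2 lists was not tested.

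**Figure D3:**
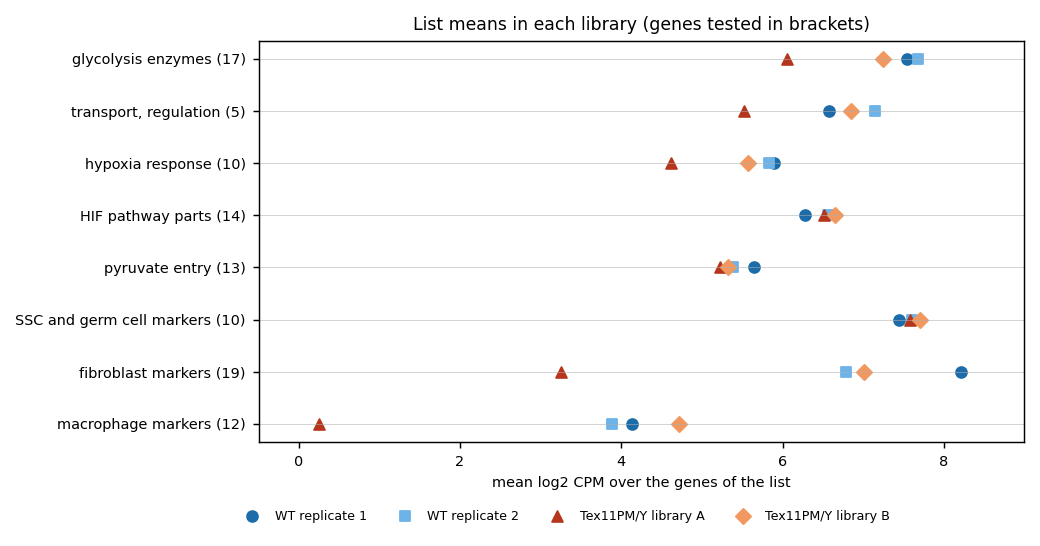
Mean log2 CPM of each gene list (horizontal axis) in the 4 libraries, over the tested genes given in brackets. Library A lies apart for glycolysis enzymes (6.05), transport and regulation, hypoxia response (4.61) and the fibroblast and macrophage markers, and close to the others for HIF pathway parts, pyruvate entry and SSC and germ cell markers.

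The size of the fitted genotype differences changed with the Tex11PM/Y library left out. Without library A the median log2 fold change was -0.26 over the enzymes and -0.12 over the hypoxia-response genes, with 0 members past the threshold. Without library B, which leaves library A as the only Tex11PM/Y library and assumes that it varies as the WT libraries do, the medians were -1.51 and -0.98. In that fit 7 members passed, all lower: Pfkl, Aldoa, Tpi1, Pgk1, Ldha, Slc16a3 and P4ha1. Of all 18765 genes in that fit, 2.37% were called lower. Their log2 fold changes there ranged from -4.17 for Pfkl (edgeR adjusted p = 0.000340) to -2.16 for Aldoa (edgeR adjusted p = 0.0257). Without library A the same 7 genes had values from -0.64 to -0.26.

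**Figure D4:**
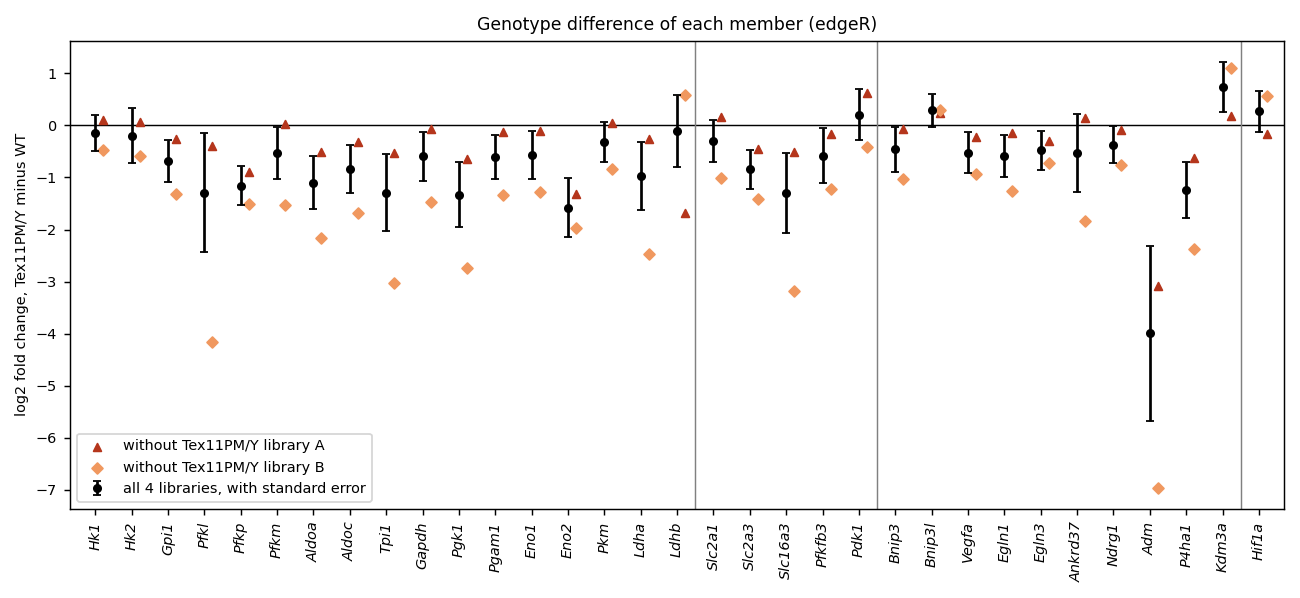
Log2 fold change of each tested member, Tex11PM/Y minus WT, by edgeR. Black points with bars give the value and standard error from all 4 libraries; triangles and diamonds leave out library A or B. Pfkl moves from -0.39 without library A to -4.17 without library B, and Ldhb moves the opposite way.

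Other genes of glycolysis, pyruvate use and HIF were described in the same way, by counts and medians. Of 10 tested further isozymes and transporters, 4 were lowest in library A, and their median log2 fold change was -0.01. The lactate transporter gene Slc16a1 held 158, 129.6, 176 and 118 CPM, with library A highest. Pfkfb2 held 8.09, 13.4, 19.5 and 10.3 CPM, Eno3 held 9.33, 8.65, 9.62 and 11.3 CPM, and Pfkfb1 held 13.03, 5.82, 5.89 and 6.63 CPM. Isozymes that belong to later germ cells were mostly too low to test: 3 of 7 could be tested, and Ldhc and Gapdhs of sperm held at most 9.41 and 3.42 CPM. Pdha2, the testis form of a pyruvate dehydrogenase subunit, held 26.5, 27.9, 39.3 and 30.5 CPM, higher in both Tex11PM/Y libraries (log2 fold change 0.36, standard error 0.37). Of 13 genes for the entry of pyruvate into mitochondria or its use there, 5 were lowest in library A and the median log2 fold change was -0.01. Among them Mpc2, of the pyruvate carrier, held 128, 128, 134 and 158 CPM. Pdhb, of pyruvate dehydrogenase, held 116, 122, 131 and 136 CPM. At Mpc2 and Pdhb the highest level was less than 2-fold above the lowest. Among the enzymes, Hk1 and Pkm also stayed within 2-fold, whereas Pgk1 and Ldha spanned more than 5-fold. Pdk3, a second kinase of that complex, held 102, 88.0, 62.0 and 84.8 CPM. Dld held 46.9, 107, 98.6 and 63.4 CPM, a span of more than 2-fold.

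Of 14 genes for HIF subunits and their control, 4 were lowest in library A, 7 were higher in both Tex11PM/Y libraries than in WT (16.1% of all genes), and the median log2 fold change was 0.16. Egln2, the third prolyl hydroxylase, held 133, 132, 124 and 148 CPM. Rbx1, of the ligase that tags HIF, held 116, 113, 119 and 123 CPM. Elob, of the same ligase, held 201, 148, 86.7 and 173 CPM, and Cited2, which competes with HIF for its coactivator, held 109, 219.99, 95.4 and 198 CPM. Of these named genes, all but Rbx1 were lowest in library A, Egln2 by a small margin. Of 32 further HIF targets, 20 were lowest in library A (34.4% of all genes), with a median log2 fold change of -0.25. Lox, which fibroblasts express strongly, held 1818, 433, 12.6 and 483 CPM. It was highest in WT replicate 1 and lowest in library A, as were the summed fibroblast markers, and a link was not tested. Mif, a cytokine, held 349, 274, 88.9 and 251 CPM, and Ddit4, an inhibitor of mTOR signalling, held 230.3, 398, 132 and 232 CPM. In each of these lists 0 genes passed the threshold (edgeR adjusted p of 0.884 or more).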

How the data were processed

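The 2 WT and 2 Tex11PM/Y libraries were made from poly(A) RNA of SSCs collected on a sorter. The authors deposited raw read counts of 55335 genes and FPKM values of 37653 genes, per the file headers; their TPM table was not used. Tools named without role or version in the submitters' processing notes are STAR, fastp, StringTie, featureCounts and DESeq2, and the build is mm10. No source used here names the annotation. The Tex11PM/Y columns have identical names, so libraries A and B follow column order in each table; counts and FPKM of the same column had rank correlations of 0.953 to 0.958, the highest of each column. Members and lists were chosen with earlier results of these data known. From each further list, up to 4 tested genes with the highest mean FPKM are named; 1 gene that this rule picks is not reported here. Pairs of libraries differed beyond sampling noise (chi-square over degrees of freedom 18.6 to 217).

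The test was edgeR 4.0.16 under R 4.3.3 (low counts removed by filterByExpr, TMM scaling, robust quasi-likelihood F test, genotype as the only term, two-sided) and adjusted by the Benjamini-Hochberg method over 17262 genes, with a threshold of 0.05. Standard errors are the log2 fold change over the root of F. CPM use TMM library sizes, and log2 CPM a prior count of 2. The fit was run on simulated data to check its code, with recovery of changed genes required only at a low simulated dispersion. That check does not give the power of the fit in these data. Promoter windows were searched for the core over their 250 bases before the start. Other settings were library size alone, DESeq2 1.42.0, DESeq2 size factors in edgeR, other count filters, limma 3.58.1 on log2(FPKM + 1) and log2(FPKM + 0.1) for genes of at least 1 FPKM in 2 libraries, and leaving out each library. Deposited FPKM depend on the authors' own alignments and transcript models.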

Additional observations from a re-analysis of the deposited data

How the results depend on the processing

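With edgeR, 0 genes were called higher and 0 lower. Without a filter on low counts these counts were 16 and 34, and DESeq2 called 1 gene higher. With a library left out they ranged from 0 to 74 and from 0 to 444, the highest without library B. Members called lower ranged from 0 to 7, and members called higher were 0 in every fit. With a library left out, the median log2 fold change ranged from -1.51 to -0.26 over enzymes and from -0.98 to -0.12 over hypoxia-response genes. In the 7 other settings 32 of 33 members kept their direction. Hk2 turned to 0.038 and 0.059 with limma on log2(FPKM + 1) and log2(FPKM + 0.1). With a library left out 22 of 33 kept it, and values ranged from -0.46 to 0.19 for Hk1, -0.80 to 0.78 for Hk2, -1.53 to 0.034 for Pfkm, -0.83 to 0.048 for Pkm, -1.68 to 0.58 for Ldhb, -1.02 to 0.16 for Slc2a1, -1.22 to 0.23 for Pfkfb3, -0.42 to 0.93 for Pdk1, -0.013 to 0.62 for Bnip3l, -1.83 to 0.14 for Ankrd37 and -0.16 to 0.63 for Hif1a. The cause was not tested beyond the libraries left out. The difference between the lists was also taken from log2(FPKM + 1), from medians over genes and with each library left out. It kept its sign in each of these. No paired analysis was possible because both Tex11PM/Y columns carry the same replicate number. Low counts limit Car9, Adm in library A and the second Aldoa row.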
